A study of Mus musculus with 35 samples.

Results

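The Hox genes described here are the members of the 4 mouse Hox clusters, Hoxa, Hoxb, Hoxc and Hoxd. Their peaks were taken from 33 chromatin immunoprecipitation sequencing (ChIP-seq) peak lists wherever the gene assigned to a peak in the list was named Hoxa, Hoxb, Hoxc or Hoxd followed by a digit. This gave 378 peaks of 1212511 in all lists, of which 110 were assigned to Hoxa, 139 to Hoxb, 83 to Hoxc and 46 to Hoxd genes. The peaks carried 41 gene names, which included 38 of the 39 protein-coding Hox genes of the RefSeq annotation. Hoxd4 had no assigned peak, and the other names were the antisense or overlapping transcripts Hoxa11os, Hoxb5os and Hoxd3os1.

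The cells were mouse B cell progenitors at the pre-B stage, grown attached to stroma and collected between passage 3 and passage 8. Wild-type (WT) cells gave 16 lists. Cells of the genotype IKDN CD2 Cre gave 17 lists; they carry a dominant-negative form of Ikaros, a zinc finger transcription factor of lymphocytes, with a Cre recombinase under CD2 control, which acts in lymphoid cells. The marks mapped in both genotypes were H3K27me3, H3K27ac, H3K4me1, H3K4me2, H3K4me3 and H3K36me3, with RNA polymerase II phosphorylated on serine 5 (RNAPII) and the Mediator subunit MED1. Of the transcription factors, Aiolos, TEAD1, ETS1, IRF4, PAX5, EBF1 and E2A were also mapped in both, Ikaros in WT only, and LHX2 and LMO2 in IKDN only. There is 1 library for each target in a genotype, so no spread between cultures can be given and no difference was tested. The labels do not say whether a culture came from 1 animal or several.

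Hox genes code for homeodomain transcription factors that give cells their position along the body axis, and they lie in clusters in the order in which they act. Polycomb repressive complex 2 places H3K27me3 over whole clusters in cells where these genes are silent, while Trithorax complexes place H3K4me3 at starts that are active or kept ready. In blood cells some of them are used again: Hoxb4 can expand blood stem cells, Hoxa9 and Hoxa10 act in early progenitors and in leukaemia, and Hoxb8 can hold myeloid progenitors in an undifferentiated state. H3K27ac and MED1 mark active enhancers and promoters, serine 5 phosphorylated RNAPII marks initiation, and H3K36me3 is laid down along gene bodies during elongation.

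The sequences that the main result turns on are the starts of 3 Hoxb genes and 2 microRNAs that lie within the clusters. The promoters are the 250 bases before the start site, from RefSeq, build GRCm38.p6, written 5′ to 3′ on the plus strand. Hoxb4 (chr11:96318017-96318266) lies in the part of the cluster where IKDN cells had no H3K27me3 peak, Hoxb8 (chr11:96281655-96281904) lies just outside its edge, and Hoxb1 (chr11:96365508-96365757) was under H3K27me3 in both genotypes. Capitals mark matches to the E-box CANNTG, the core that E2A recognises.
Hoxb4 promoter: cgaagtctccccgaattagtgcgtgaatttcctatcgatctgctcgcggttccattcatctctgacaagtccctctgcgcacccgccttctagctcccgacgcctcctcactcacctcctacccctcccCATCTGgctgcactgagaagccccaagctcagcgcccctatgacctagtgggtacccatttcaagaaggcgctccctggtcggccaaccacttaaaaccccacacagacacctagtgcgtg
Hoxb8 promoter: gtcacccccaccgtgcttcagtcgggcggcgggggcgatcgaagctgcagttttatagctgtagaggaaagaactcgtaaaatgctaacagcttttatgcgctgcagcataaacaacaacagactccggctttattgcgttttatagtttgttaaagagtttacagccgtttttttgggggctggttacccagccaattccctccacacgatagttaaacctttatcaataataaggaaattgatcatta
Hoxb1 promoter: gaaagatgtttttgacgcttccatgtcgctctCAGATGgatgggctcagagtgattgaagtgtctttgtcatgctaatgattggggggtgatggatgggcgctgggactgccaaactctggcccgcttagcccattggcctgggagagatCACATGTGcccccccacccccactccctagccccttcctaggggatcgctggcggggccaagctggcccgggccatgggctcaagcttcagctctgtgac
The Hoxb4 promoter held 1 such match, Hoxb1 held 3, of which a pair overlaps, and Hoxb8 held 0. A match to CANNTG was present in 66.2% of the 32851 RefSeq promoters of this length. None of the 3 held TAATTA (searched for LHX2), GGAATG (TEAD1), TGGGAA (Ikaros), the palindromic EBF1 core or the paired GAAA core of IRF4 on either strand, which occurred in 4.84%, 12.6%, 21.6%, 0.779% and 2.98% of promoters. The sequences held 14 (Hoxb4), 12 (Hoxb8) and 7 (Hoxb1) CpG dinucleotides, where the median promoter held 6.

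Of the microRNA genes in the clusters, Mir10a lies next to Hoxb4 and Mir10b in Hoxd. Their mature 5p forms share a seed (bases 2 to 8, in capitals), so they are shown together.
mmu-miR-10a-5p: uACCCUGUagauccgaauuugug
mmu-miR-10b-5p: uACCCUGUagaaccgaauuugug

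Before the comparisons, some features of the lists bear on what follows. The lists held between 2783 and 86562 peaks, and between 0 and 41 of them were assigned to Hox genes, with a median of 9. The 4 lists with 0 Hox peaks were both Aiolos lists, WT E2A and WT MED1. The WT E2A list is incomplete on 9 chromosomes: among them it has no peaks on chromosome 6, where Hoxa lies, and on chromosome 2 its peaks end beyond Hoxd. Chromosome 2 is missing from WT ETS1. So E2A was not compared at Hoxa, nor ETS1 at Hoxd. Depth is not given, but the scores of each list are multiples of a smallest step, as a tag count scaled to a fixed total would be. For H3K4me3 that step was 0.34 (WT) and 0.94 (IKDN), so on that reading the IKDN H3K4me3 library is the shallower. The steps of the H3K27me3 lists were 0.28 (WT) and 0.27 (IKDN). The labels give 1 antibody entry to several targets (H3K4me1 and IKDN H3K4me3; WT E2A, IKDN ETS1 and LHX2; IKDN E2A, IRF4 and PAX5), and targets were taken from the sample titles. In the H3K4me3 lists 57.4% (WT) and 60.2% (IKDN) of peaks lay within 1 kb of a start site, against 17.5% and 15.8% in the H3K4me1 lists.

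The cells' label was set against marker genes by H3K27ac over the gene and 2.5 kb on each side. All 15 B lineage markers had H3K27ac in WT and 13 did in IKDN cells, with a summed covered length of 280 kb in WT against 180 kb in IKDN. Of 20 stromal fibroblast markers, 7 had none in WT and 9 had none in IKDN cells, with 56.3 kb and 40.5 kb in all. Most stromal markers thus had H3K27ac in both genotypes. Of all protein-coding genes, 59.2% had it in WT and 60.2% in IKDN. H3K27me3 was called higher in IKDN at 10 of these 20 stromal genes and lower at 3, where 12.5% and 13.1% of all 21887 protein-coding genes were called by the thresholds given below. The lists of other blood cells had more lower than higher calls for this mark: 5 of 12 T cell markers, 5 of 12 myeloid markers and 5 of 15 haematopoietic progenitor factors were called lower, and 2, 1 and 4 higher. Examples of the lower calls only are Cd4 (20.1 kb in WT, none in IKDN), Cebpa (5.63 kb and 0.882 kb) and Lmo2 (17.5 kb and none). Fibroblasts of the body wall and limbs use Hox genes, and the part of all these lists in the Hox results was not tested. In bulk cultures such as these, a mark in more cells and more of a mark per cell cannot be told apart.

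H3K27me3 covered most or all of every Hox cluster in WT cells, and in IKDN cells it was missing from 1 stretch of Hoxb. Over the clusters and 10 kb on each side, WT peaks covered 97.3% of Hoxa, 88.1% of Hoxb, 100% of Hoxc (135.7 kb in 1 peak) and 99.5% of Hoxd. The IKDN peaks covered 93.2% of Hoxa, 65.6% of Hoxb, and the whole of both Hoxc and Hoxd. In length, Hoxb had 170.9 kb in WT against 127.2 kb in IKDN, a difference of -43.8 kb. Hoxa had 122.1 kb and 117.0 kb, and Hoxd 116.4 kb and 116.9 kb.

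**Figure D1:**
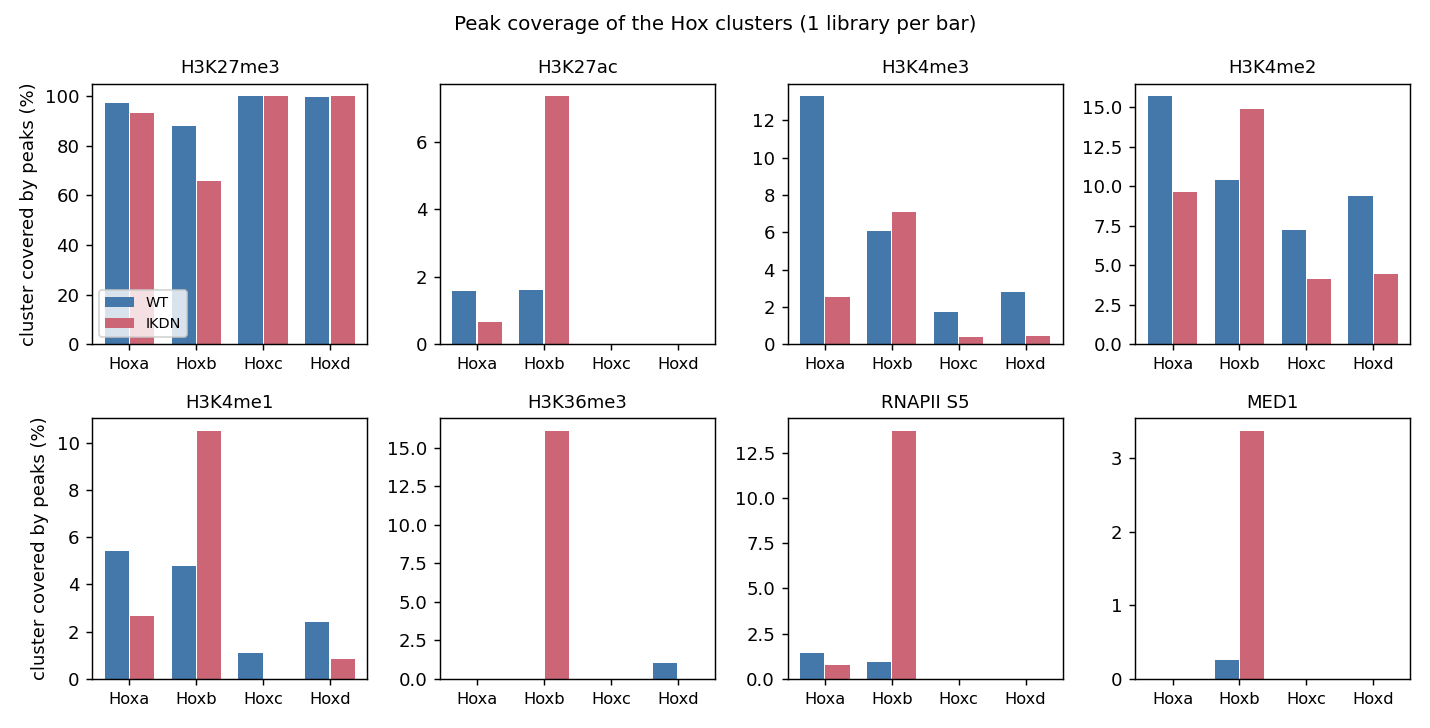
Percent of each Hox cluster (first to last gene and 10 kb on each side) covered by peaks of each mark, with WT in blue and IKDN in red and 1 library per bar. Vertical scales differ between panels. H3K27me3 is at 93.2% or more over Hoxa, Hoxc and Hoxd in both genotypes and at 88.1% (WT) and 65.6% (IKDN) over Hoxb, and H3K27ac, H3K36me3, RNAPII and MED1 are higher in IKDN over Hoxb alone of the 4 clusters.

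The active marks went the other way over the same cluster. H3K36me3 covered 0 kb of Hoxb in WT and 31.2 kb in IKDN cells. RNAPII covered 1.84 kb and 26.5 kb, H3K27ac 3.13 kb and 14.3 kb, and MED1 0.5 kb and 6.54 kb. The plot of cluster coverage shows this for all 8 marks: over Hoxc and Hoxd there was no H3K27ac, RNAPII or MED1 peak in either genotype, and over Hoxa H3K27ac had 2.0 kb in WT against 0.819 kb in IKDN. H3K36me3 outside Hoxb was limited to 1 WT peak of 1.23 kb in Hoxd.

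Gene by gene, each protein-coding Hox gene was given a window of the gene and 2.5 kb on each side, and a gene was called higher or lower in IKDN when the covered length differed by at least 1000 bp and at least 1.5 times. These calls are thresholds on 1 library each. For H3K27me3, 0 of 39 Hox genes were called higher and 6 lower (15.4%), where 12.5% of 21887 protein-coding genes were called higher and 13.1% lower. The share of Hox genes called lower is thus close to that of all genes. Of the 367 protein-coding genes that were more than 90% covered in WT, 11.7% were called lower, and of the 36 Hox genes among them 11.1%. What the 6 share is position: they are Hoxb3 to Hoxb8, neighbours on chromosome 11, and their windows overlap, so they are not separate events. The RefSeq model of Hoxb3 is long and spans Hoxb4.

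Hoxb5, which acts in vessel and neural crest development and is also used as a marker of long-lived blood stem cells, had H3K27me3 over its whole window of 7.61 kb in WT against none in IKDN. Hoxb4 had 7.23 kb in WT against none in IKDN. Hoxb6 had 13.8 kb and 0.5 kb, and Hoxb7 had 9.56 kb and 0.386 kb. The loss was therefore close to complete at these 4 genes. Hoxb3, the longest, had 32.4 kb in WT against 1.08 kb in IKDN. Hoxb8, at the edge, kept 6.59 kb of 10.9 kb.

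At the Hoxb genes on either side of these, H3K27me3 was the same in both lists or nearly so. Hoxb13, Hoxb9 and Hoxb1 were covered over their whole windows in both genotypes, and Hoxb2 had 7.39 kb in WT against 7.17 kb in IKDN. In all, 29 of 39 Hox gene windows were fully covered in both: 8 of 11 in Hoxa, 3 of 10 in Hoxb, and all 9 in Hoxc and all 9 in Hoxd. The Hoxa genes short of this were Hoxa3 (46.4 kb in WT, 40.5 kb in IKDN), Hoxa5 (6.73 kb and 6.95 kb) and Hoxa6 (8.81 kb and 7.93 kb), and none of them passed the threshold.

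**Figure D2:**
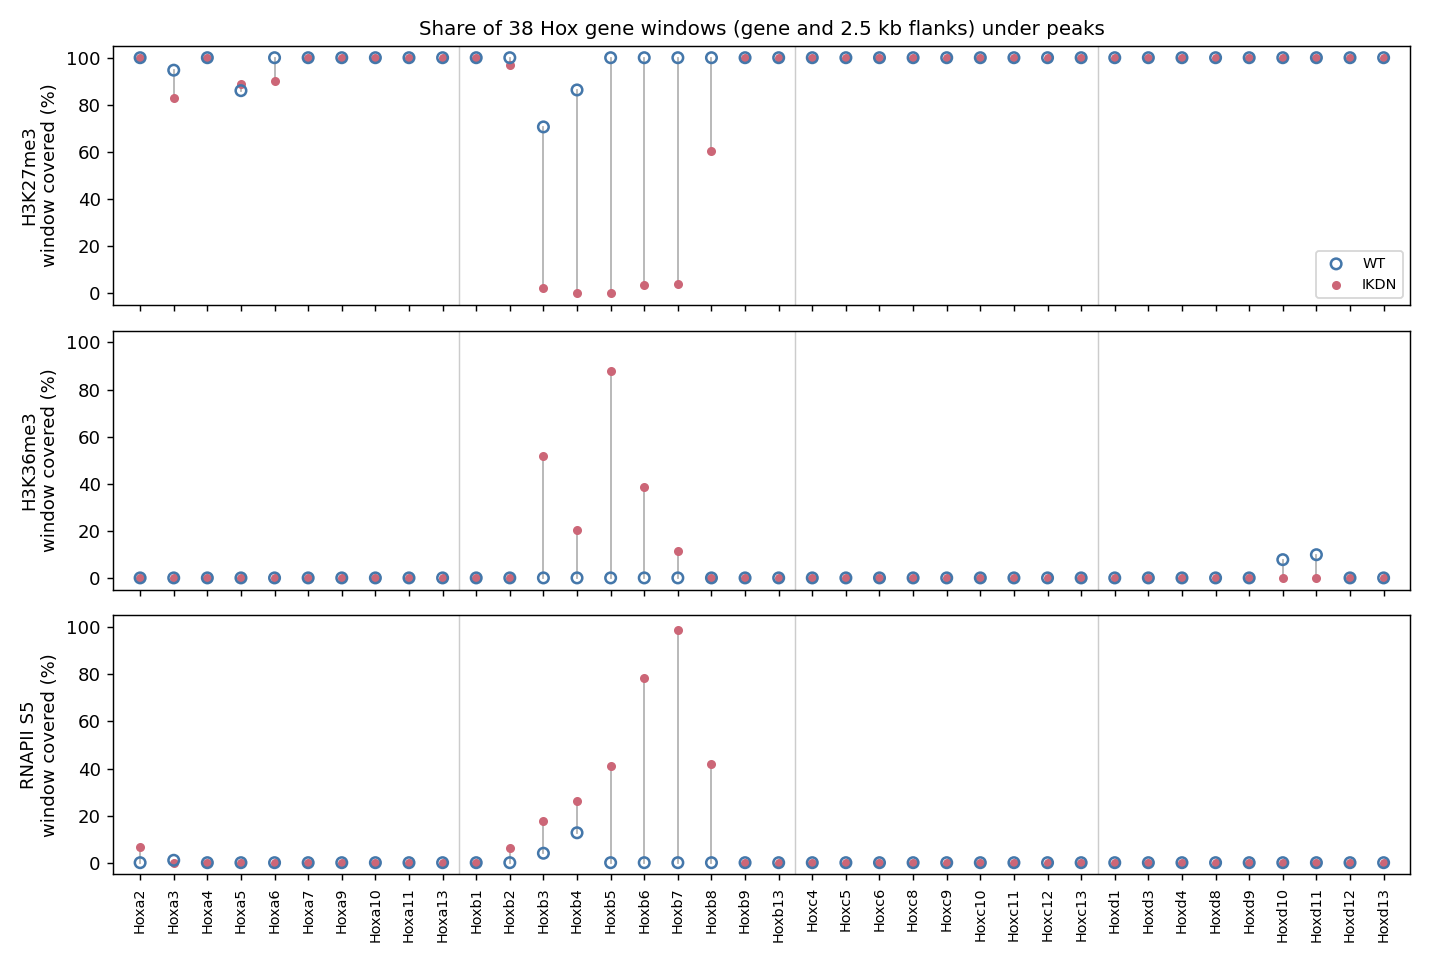
Percent of 38 of the 39 Hox gene windows (gene and 2.5 kb on each side) under H3K27me3, H3K36me3 and RNAPII peaks, with WT as open blue circles and IKDN as filled red points, 1 library each. Windows of neighbours overlap. Hoxb3 to Hoxb7 go from at least 70.6% to at most 4.04% H3K27me3, and the same genes are those with H3K36me3 in IKDN.

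RNAPII was called higher at 6 Hox genes (15.4%) and lower at 0, against 15.3% and 13.2% of all genes, and the 6 were again Hoxb3 to Hoxb8. Hoxb6 had no RNAPII peak in WT against 10.8 kb in IKDN. Hoxb7 had 0 kb and 9.44 kb, Hoxb8 0 kb and 4.60 kb, and Hoxb5 0 kb and 3.14 kb. Hoxb3 and Hoxb4 already carried RNAPII in WT, with 1.84 kb and 1.07 kb, and had 8.11 kb and 2.19 kb in IKDN. The count of 6 is near the background, so it is not a result about Hox genes as a class.

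H3K36me3 was called higher at 5 Hox genes (12.8%, against 13.5% of all genes) and lower at 2 (5.13%, against 2.37%). Hoxb3 had 0 kb in WT against 23.8 kb in IKDN, and Hoxb5 had 0 kb and 6.70 kb. Hoxb6 had 0 kb and 5.29 kb, Hoxb4 0 kb and 1.71 kb, and Hoxb7 0 kb and 1.09 kb. No Hoxb gene had H3K36me3 in WT, whereas 50.6% of all genes did. The 2 called lower, Hoxd10 and Hoxd11, share the single WT peak of 1.23 kb, which lay under H3K27me3.

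H3K27ac was called higher at 4 Hox genes (10.3%, against 10.4% of all genes) and lower at 1 (2.56%, against 7.06%). Hoxb7 had 0.635 kb in WT against 6.45 kb in IKDN, Hoxb6 0 kb and 4.66 kb, Hoxb8 0.635 kb and 4.83 kb, and Hoxb3 2496 bp and 4294 bp. The Hoxb7 and Hoxb8 windows hold the same WT peak. The Hoxb3 lengths are those of the Hoxb4 peak and 1 peak upstream of Hoxb4 in each genotype. Hoxb4 had 1.87 kb and 2.36 kb and was not called, so its start had H3K27ac in both genotypes. The gene called lower was Hoxa3, with 1.5 kb in WT against none in IKDN.

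MED1 was called higher at Hoxb3, Hoxb6, Hoxb7 and Hoxb8 and lower at 0 Hox genes. These 4 are 10.3% of Hox genes, where 24.0% of all genes were called higher and 0.48% lower. The MED1 list held 12070 peaks in WT and 24219 in IKDN, and with equal numbers of peaks 2 Hox genes were called higher. Hoxb7 and Hoxb8 had 0 kb in WT against 3.38 kb in IKDN over the same peaks, Hoxb6 had 0 kb and 1.55 kb, and Hoxb3 0.5 kb and 1.61 kb. The Hoxb3 lengths again come from peaks at Hoxb4 or upstream of it.

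H3K4me1 was called higher at 4 Hox genes (11.1% of all genes) and lower at 2 (12.1% of all genes). The 4 were Hoxb3, Hoxb4, Hoxb6 and Hoxb7, the last with 3.73 kb in WT against 6.13 kb in IKDN. The 2 lower were Hoxa7 (1.67 kb and 0.658 kb) and Hoxa10 (1.0 kb and 0 kb). H3K4me2 was called higher at 5 Hox genes (12.8%, against 7.39% of all genes) and lower at 9 (23.1%, against 5.48%). Hoxb7 had 5.27 kb of H3K4me2 in WT and 8.58 kb in IKDN, and Hoxb9, still under H3K27me3, had 0 kb and 3.01 kb. The lower calls were spread over all 4 clusters, with 4 in Hoxa, 1 in Hoxb, 2 in Hoxc and 2 in Hoxd. Of these Hoxa10, which acts in the uterus and in blood progenitors, had 3.91 kb in WT against 0.5 kb in IKDN.

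H3K4me3 was the mark for which the Hox genes stood furthest from the background. It was called lower in IKDN at 10 Hox genes (25.6%, against 4.84% of all genes) and higher at 1 (2.56%, against 1.83%). The 10 were 8 Hoxa genes, Hoxc9 and Hoxd13, and the gene called higher was Hoxb8 (3709 bp in WT, 5602 bp in IKDN). Windows of neighbours overlap here too, so the Hoxa calls are not separate events and the share counts some peaks more than once. Hoxa5 and Hoxa6 were called on the same WT peak of 1329 bp, which the Hoxa3 window also holds. Hoxa3 had 8.57 kb in WT against 1.14 kb in IKDN, Hoxa9 had 2.32 kb and 0.5 kb, and Hoxd13, the gene for digits and genital tubercle, had 2.15 kb and 0 kb. With the top-scored 50% of each list 0 Hox genes were called lower, so all 10 calls rest on peaks in the lower-scored part of the WT list. The step in the scores was also larger in the IKDN list, as given above. The labels give the WT and IKDN H3K4me3 libraries different antibody entries, the IKDN one shared with H3K4me1. The part of either in these calls was not tested. H3K4me3 was also called lower at 13 of the 20 stromal fibroblast markers and at 6 of the 15 B lineage markers, both above the 4.84% of all genes, whose part was not tested either.

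Within Hoxb the peaks can be placed exactly. The IKDN H3K27me3 list had no peak from chr11:96283490 to 96349349, a stretch of 65.9 kb, apart from 1 peak of 500 bp in Hoxb6 that ranked 61955 of 78085. The stretch was delimited after its values were seen. WT H3K27me3 peaks covered 52.4 kb of it (79.5%) in 10 peaks. It begins within Hoxb8, holds Hoxb7, Hoxb6, Hoxb5, Hoxb4, Mir10a and Hoxb3, and ends between Hoxb3 and Hoxb2. Over the rest of the cluster and its flanks, IKDN peaks covered 126.7 kb (98.9%) and WT peaks 118.5 kb (92.6%). The stretch is itself the gap between IKDN peaks, so a high IKDN share outside it is set by that choice. The comparison outside the stretch is therefore not a result.

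**Figure D3:**
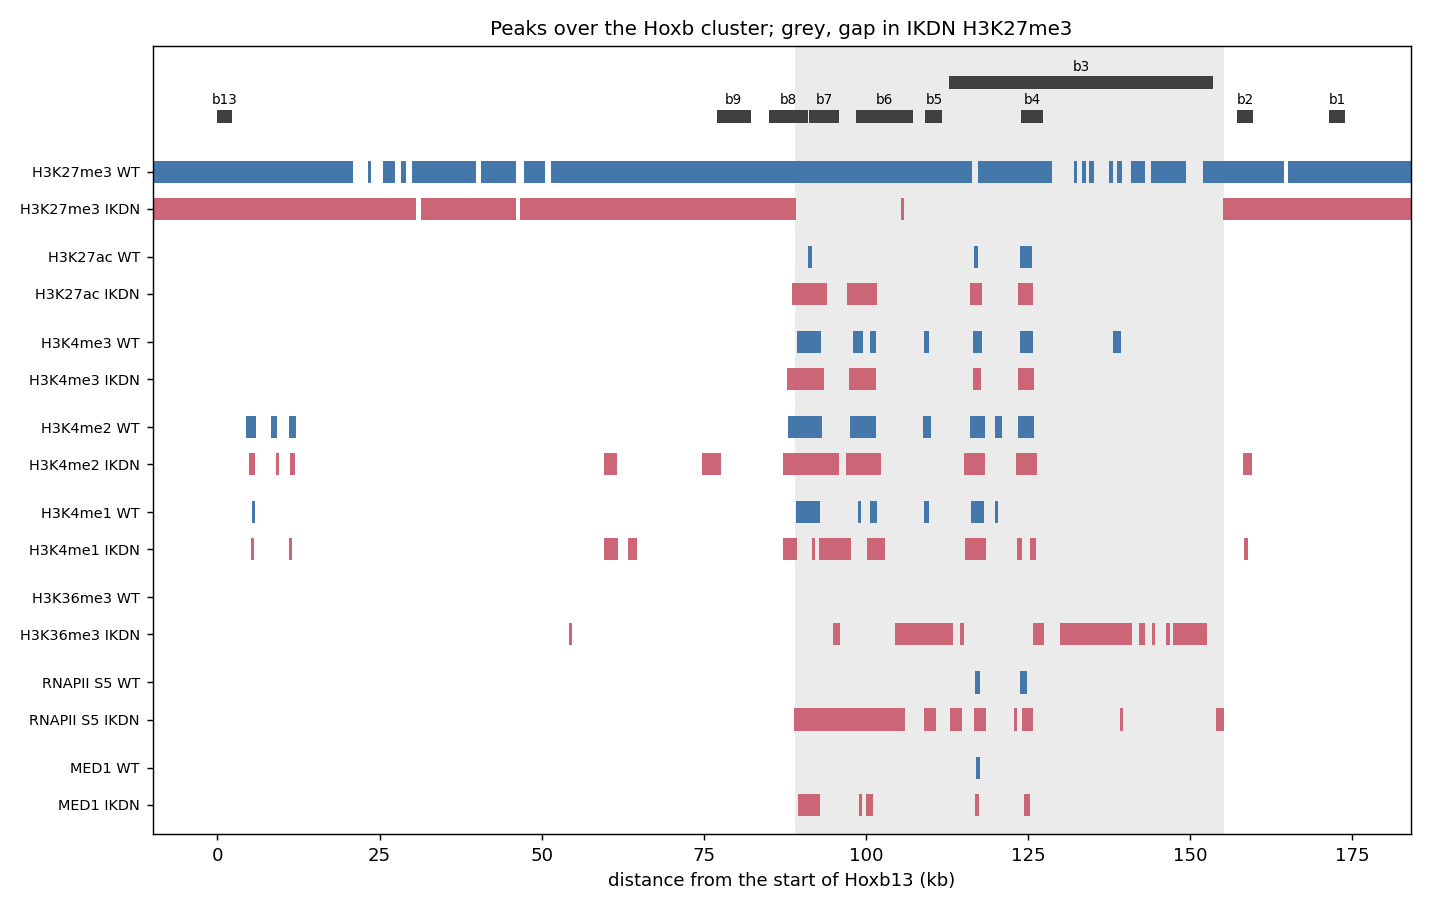
Peaks of 8 marks over the Hoxb cluster in WT (blue) and IKDN (red), by distance in kb from the start of Hoxb13, with gene bodies as dark bars (b13 to b1) and the IKDN gap in H3K27me3 in grey. H3K27me3 flanks the grey stretch on both sides in IKDN, and IKDN H3K36me3, RNAPII, H3K27ac and MED1 peaks lie within it or at its edge, apart from 1 small H3K36me3 peak.

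The active marks in the stretch differed in length and in rank. RNAPII covered 1.84 kb in 2 peaks in WT and 26.0 kb in 8 peaks in IKDN, and the best rank there went from 17096 in the WT list to 821 in the IKDN list. H3K27ac covered 3.13 kb and 13.8 kb, with best ranks of 10125 and 655. H3K36me3 covered 0 kb and 30.7 kb. H3K4me3 had nearly the same length, 11.8 kb in WT against 12.4 kb in IKDN, but its best rank was 6866 in WT and 947 in IKDN. In WT this H3K4me3 lay in a stretch that was mostly under H3K27me3. The stretch was chosen as the gap in IKDN H3K27me3, so IKDN H3K4me3 in it lies outside that mark by construction. As the map of Hoxb peaks shows, RNAPII and H3K27ac lay mainly over Hoxb8 to Hoxb6, while H3K36me3 lay mainly over Hoxb5 and the body of Hoxb3.

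H3K27me3 was also shorter in IKDN beyond the cluster, past Hoxb1. Peaks assigned to Hoxb1 but more than 20 kb from its start lie in a region of 31.0 kb (chr11:96387778-96418814) that holds no protein-coding RefSeq gene, and it was delimited after its values were seen. H3K27me3 covered 22.7 kb of it in WT, the largest peak with 10.7 kb at rank 2027, and 4.42 kb in IKDN. H3K4me1 and H3K4me2 had no peak there in WT, and in IKDN they had 4 peaks each, covering 8.01 kb and 3.67 kb. H3K27ac, RNAPII, H3K36me3 and MED1 had none in either genotype, unlike in the stretch from Hoxb8 to Hoxb3. TEAD1 had 2 peaks in both genotypes. In IKDN PAX5 had 2 peaks, ETS1 3, and E2A, IRF4, LHX2 and LMO2 1 each, and LMO2 ranked 2966 of 15437. The factors among these that were mapped in WT had 0 there.

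The state of 1 start site per gene (1 kb on each side) was read from H3K27me3, H3K4me3 and H3K27ac. Other starts of the same gene were not read. In WT all 39 starts had H3K27me3: 26 had it alone, 10 had H3K4me3 too, the pairing called bivalent, and 3 had all 3 marks, Hoxb4 and Hoxb7 among them. In IKDN 29 had H3K27me3 alone, 5 had it with H3K4me3, and 1 had all 3. Hoxb4 and Hoxb7 had H3K4me3 and H3K27ac without H3K27me3 in IKDN, and Hoxb3 and Hoxb5 had none of the 3. Hoxb8 went from H3K27me3 alone to H3K27me3 with H3K4me3. At Hoxb6 the start itself was read as H3K27me3 in both genotypes, in IKDN because of the 500 bp peak.

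The joint pattern can be set against all genes. H3K27me3 lower with RNAPII higher was called at 756 genes (3.45%), including all 6 of Hoxb3 to Hoxb8. H3K27me3 lower with H3K27ac, H3K36me3 and RNAPII all higher was called at 296 genes (1.35%), of which 3 were Hox genes: Hoxb7, Hoxb6 and Hoxb3. By loss of H3K27me3 length these ranked 486, 270 and 68 of 21887 genes. Many other genes thus carried the same exchange, and the 3 Hox genes are adjacent or nearly so. The H3K27ac call of Hoxb3 rests on the peaks at Hoxb4 and upstream of it, as given above.

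Broad H3K27me3 peaks at the Hox clusters were among the highest-scored of each list. In WT, the peaks assigned to Hoxc6 (206 kb), Hoxd8 (128 kb), Hoxa10 (83.0 kb), Hoxb8 (65.0 kb) and Hoxb13 (56.1 kb) ranked 1, 3, 4, 6 and 7 of 79738. In IKDN, those assigned to Hoxc8 (304 kb), Hoxd8 (144 kb), Hoxa11os (78.4 kb) and Hoxb13 (82.0 kb) ranked 1, 3, 4 and 6 of 78085, and the Hoxb8 peak had no counterpart among them. Of 219 WT peaks of at least 20 kb, the median was 99.7% covered by IKDN peaks. The Hoxb8 peak was 58.9% covered, and 15 of the 219 had a lower share. The other 7 Hox peaks of that size were between 87.0% (Hoxa4) and 100% covered.

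The longer IKDN peak at Hoxc did not take in more Hox genes. Both the WT and the IKDN peak held 9 protein-coding genes. The added flanks of 56.6 kb and 41.9 kb were already 81.5% and 98.5% covered in WT, by 8 peaks and by 1 peak, so the IKDN peak mostly joins what the WT list gives as separate peaks.

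Peaks also turned over in number. Of 41 WT H3K27me3 peaks assigned to Hox genes, 31 overlapped an IKDN peak by at least 1 bp (75.6%, 95% Clopper-Pearson interval 59.7% to 87.6%), and of 18 IKDN peaks 15 overlapped a WT peak (83.3%, 58.6% to 96.4%). Over all peaks these shares were 44.3% and 40.8%. For H3K4me3, 11 of 23 WT Hox peaks were shared (47.8%, 26.8% to 69.4%) against 81.8% of all WT peaks, and all 10 IKDN Hox peaks were shared, against 87.1%. For H3K27ac, 3 of 6 WT and 3 of 4 IKDN Hox peaks were shared, against 67.9% and 59.6% of all peaks. For RNAPII it was 2 of 3 WT and 2 of 8 IKDN Hox peaks, against 54.0% and 60.9%. The intervals cover counting error only. When 50% of both peaks had to overlap, 22.0% of WT H3K27me3 Hox peaks were shared, close to the 18.6% of all WT peaks. The IKDN Hox share was then 44.4% and stayed above that of all IKDN peaks.

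The microRNA genes followed the clusters they lie in. Mir10a, within the stretch, had H3K27me3 over all 5.11 kb of its window in WT against none in IKDN. In the same window RNAPII covered 1.07 kb and 1.93 kb, H3K27ac 1.74 kb and 2.02 kb, and MED1 0 kb and 0.952 kb. This window takes in the Hoxb4 start, and these lengths come from peaks at that start. The exception is 1 IKDN RNAPII peak of 0.5 kb, which lay over Mir10a itself. Mir10b, whose mature 5p form has the same seed, was wholly under H3K27me3 in both genotypes with no H3K27ac or RNAPII. The same held for Mir196a-1, Mir196a-2, Mir196b and Mir615. Peaks assigned to Mir10a (25) and Mir196a-1 (5), with 24 of Gm11538 and 20 of Gm53, are the 74 peaks in Hoxb that carry other names. They are not among the 378, but lie in the windows above.

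Transcription factor peaks in the clusters mostly lay under H3K27me3, with a lower share in Hoxb of IKDN cells. In WT, 70 of 74 factor peaks in the clusters overlapped H3K27me3 (94.6%), against 6.03% of all WT factor peaks. In IKDN it was 81 of 109 (74.3%), against 5.75%. The mark itself covered 88.1% or more of each cluster in WT. In IKDN it covered 65.6% of Hoxb and 93.2% or more of each other cluster. High shares therefore follow from the choice of region, and the distance from all factor peaks is not a result about the factors. By cluster the IKDN shares were 26 of 27 in Hoxa, 23 of 50 in Hoxb, 22 of 22 in Hoxc and 10 of 10 in Hoxd. The Hoxb stretch held 14 WT and 27 IKDN factor peaks. It was delimited by the gap in IKDN H3K27me3, so its IKDN peaks lie outside that mark by construction, which lowers the share in Hoxb.

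**Figure D4:**
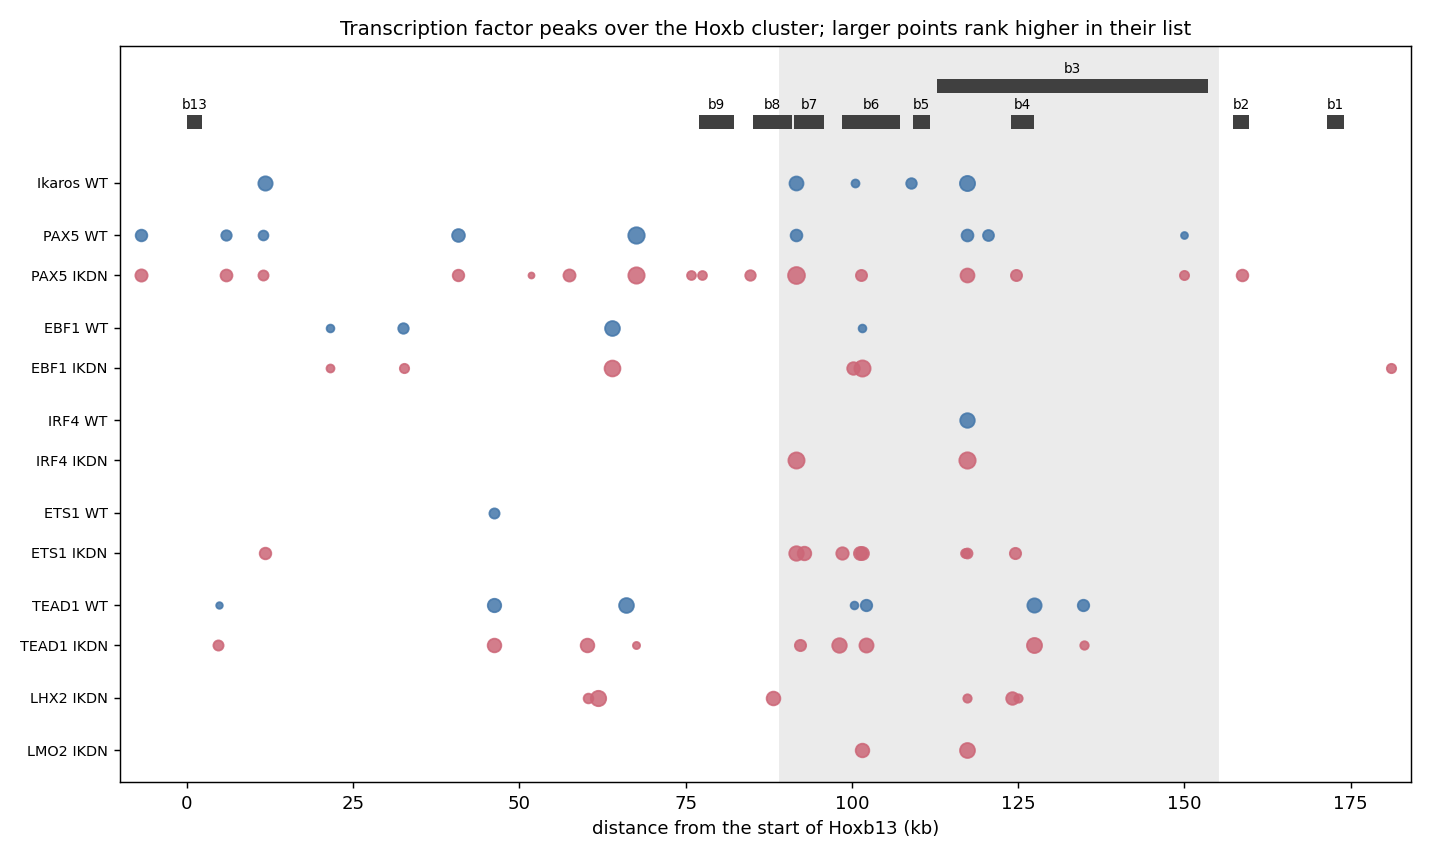
Transcription factor peaks over the Hoxb cluster by distance in kb from the start of Hoxb13, with WT in blue and IKDN in red, 1 list per row and point size by rank within the list; E2A and Aiolos, with 0 peaks here, are left out. The grey IKDN gap in H3K27me3 holds 8 IKDN ETS1 peaks and 0 WT ETS1 peaks, while PAX5 and TEAD1 have peaks in both genotypes.

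ETS1, a factor of lymphoid and endothelial cells, had 0 WT and 8 IKDN peaks in the stretch. The ETS1 list held 22482 peaks in WT and 35490 in IKDN, and the labels give these libraries different antibody entries, the IKDN one shared with WT E2A and LHX2. The part of either in this difference was not tested. PAX5, which holds B cell identity, had 4 and 5 peaks, TEAD1, a partner of YAP, had 4 and 5, and EBF1 and IRF4 had 1 and 2 each. Ikaros had 4 peaks there in WT, and in IKDN LHX2 had 3 and LMO2 had 2. The plot of factor peaks places most of these at a few sites. After overlapping factor peaks were merged, the clusters held 102 sites, and 7 of them had peaks from 4 or more libraries: 3 in Hoxb, 2 in Hoxa and 2 in Hoxc.

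The site with the most libraries in the stretch lay 6.62 kb upstream of Hoxb4 (chr11:96311470-96311827), within the long Hoxb3 model. It had WT Ikaros (rank 10402 of 42641), PAX5 and IRF4 peaks, and IKDN PAX5, IRF4, ETS1, LHX2 and LMO2 peaks. IRF4 ranked 5551 of 17950 in WT and 2872 of 29561 in IKDN, and LMO2, a bridging protein of blood progenitors, ranked 4069 of 15437. The site carried H3K27ac in both genotypes. Most of it lay in a gap between WT H3K27me3 peaks, from chr11:96310746 to 96311674, and only its end overlapped that mark. It lies in the stretch chosen as the IKDN gap, so it lacks IKDN H3K27me3 by construction.

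A second site lay 0.69 kb upstream of the Hoxb7 start implied by the deposited distances, within the RefSeq Hoxb7 model (chr11:96285786-96286126). PAX5 ranked 48653 of 82216 there in WT (in the top 59.2%) and 2578 of 86562 in IKDN (in the top 2.98%). IKDN cells also had IRF4 (rank 3547) and ETS1 (rank 11210) peaks, and WT cells an Ikaros peak (rank 15876). The labels give the same antibody entry to PAX5 and IRF4, which bears on any site where both are listed. The site near Hoxb6 (chr11:96295448-96296021) lay 3.44 kb upstream of the start implied in the same way, within the RefSeq Hoxb6 model. It had EBF1 at rank 22829 of 25596 in WT and 3985 of 33382 in IKDN, with IKDN ETS1, PAX5 and LMO2. The 3 sites thus had factor peaks in both genotypes, and the IKDN peaks of the shared factors ranked higher.

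In the other clusters, factors were listed at sites that H3K27me3 covered in both genotypes. The site with most libraries of all lay 3.31 kb upstream of Hoxa7 (chr6:52221625-52222138), with 5 WT and 5 IKDN libraries. EBF1 ranked 1427 in WT (top 5.58%) and 2574 in IKDN (top 7.71%) there, and PAX5 was in the top 13.4% and 11.3%. It carried no H3K27ac in either genotype. LHX2, a homeodomain factor, had its highest-ranked Hox peak 8.83 kb downstream of the Hoxc8 start, at rank 872 of 26634, under H3K27me3. The remaining sites with several libraries were near Hoxa3, Hoxc10 and Hoxc4, and all lay under H3K27me3 in both.

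Hox proteins bind DNA together with Pbx, Meis and Pknox (Prep) proteins. Of 9 such cofactor genes, H3K27me3 was called higher in IKDN at 3 and lower at 2, and H3K27ac higher at 2 and lower at 2. Of all genes, 12.5% and 13.1% were called for H3K27me3 and 10.4% and 7.06% for H3K27ac, and with 9 genes these counts show no common direction. Meis1, a cofactor of Hoxa9 in leukaemia, had 16.7 kb of H3K27me3 in WT and 31.7 kb in IKDN, and H3K27ac over 1.14 kb in WT against none in IKDN. Meis2 had 16.4 kb and 29.7 kb of H3K27me3, and 3.19 kb and 0.5 kb of H3K27ac. Pbx3 went the other way, with 2.61 kb and 0.94 kb of H3K27me3 and 3.64 kb and 7.17 kb of H3K27ac.

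Of 25 genes for Polycomb subunits, H3K27me3 was called higher at 2 and lower at 5, and H3K27ac higher at 2 and lower at 2. Set against the same shares of all genes, the counts for these 2 marks are near the background, and the genes below are given as single values. Other marks stood above it. RNAPII was called higher at 9 and lower at 1, H3K36me3 higher at 8 and lower at 0, and MED1 higher at 16 and lower at 0. Of all genes, 15.3%, 13.5% and 24.0% were called higher for these. The reasons were not tested. Phc2, a subunit of the canonical Polycomb repressive complex 1, had 14.3 kb of H3K27me3 in WT against none in IKDN, with 10.8 kb and 22.1 kb of H3K27ac. Cbx7, which reads H3K27me3, had 10.8 kb and 1.16 kb of H3K27me3. Jarid2, a partner of Polycomb repressive complex 2, had 21.3 kb and 46.7 kb of H3K27ac. Of 17 genes for Trithorax proteins and H3K27 demethylases, H3K27me3 was called lower at 1, the demethylase gene Kdm6b (6.56 kb in WT, none in IKDN), and H3K27ac higher at 2 and lower at 1.

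Of 51 homeobox genes outside the clusters, H3K4me3 was called lower at 11 and higher at 1, H3K27me3 higher at 4 and lower at 2, and H3K27ac higher at 2 and lower at 3. Of all genes, 4.84% were called lower and 1.83% higher for H3K4me3, 12.5% higher and 13.1% lower for H3K27me3, and 10.4% higher and 7.06% lower for H3K27ac. Lower H3K4me3 was thus above the background in these genes as well as in the Hox genes. The limits given above for the H3K4me3 lists apply here too. The largest H3K27me3 loss was at Lhx2, the gene of the LHX2 factor, with 24.2 kb in WT against none in IKDN. Of 12 genes flanking the clusters, H3K27me3 was called higher at 1 and lower at 2. Skap1, beside Hoxb, had no H3K27ac in WT and 4.43 kb in IKDN.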

How the data were processed

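The files are ChIP-seq peak lists, 1 per library. Per the file headers, each peak has coordinates, a peak score, a distance to the nearest start site and a gene name. The peak score is as the authors deposited it; its scale is not stated, and it was used only to rank and filter peaks within a list. Per the submitters' processing notes, HOMER, BWA, STAR and bcl2fastq 1.8.3 were among the tools, with no role given, and both mm9 and mm10 are named as builds. The peak caller's settings are not given in the sources used here. Of the start sites implied by the deposited distances, 99.5% lay within 1000 bp of the gene in RefSeq GRCm38.p6, so coordinates are given in that build.

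Peaks were merged within a list, and covered length was computed over gene windows and clusters with Python 3.11.15, pandas 2.3.3 and numpy 2.4.6. Coverage and calls were tested on simulated intervals. Windows were taken by position because a broad peak carries the name of 1 gene only; 62 members lie over 20 kb from a start site. No test was possible with 1 library per group. Members, gene lists and the rule for named genes were chosen with earlier results of these data known. Values in full are given for the largest H3K27me3 and H3K27ac changes per cluster, opposite calls, and peaks of LHX2, LMO2, TEAD1 or Ikaros; of each list, for up to 3 genes called in each direction. Hoxb13, Hoxb9, Hoxb2, Hoxb1 and the microRNA genes were chosen after their values were seen. Alternatives were the top-scored 50% of each list, equal peak numbers, peaks by gene name, a ratio of 2, 1 kb around start sites with a 500 bp difference, clusters without flanks, and overlap of 50% of both peaks. The values of 1 Hox gene are not reported here; it is included in the counts.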

Additional observations from a re-analysis of the deposited data

How the results depend on the processing

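The number of Hox genes with lower H3K27me3 in IKDN was 6, and 5 to 7 under the 5 alternatives. The balance of calls turned for H3K4me3 (1 higher and 10 lower) with the top-scored 50% and for H3K4me1 (4 higher and 2 lower) at start sites and at a ratio of 2. With the top-scored 50% of each list, H3K4me3 was called lower at 0 and higher at 3 Hox genes, H3K27ac lower at 0, H3K4me2 higher at 3, H3K36me3 lower at 0, RNAPII lower at 1 and MED1 higher at 2. The H3K27me3 difference over Hoxb was then -40.6 kb and that of H3K27ac 12.4 kb over Hoxb and 0 kb over Hoxa. Shared Hox peaks became 100% of 1 WT H3K27ac and of 1 WT H3K4me3 peak, and 33.3% of IKDN H3K4me3 peaks. Over all peaks these shares were then 81.7%, 90.2% and 95.5%. By gene name, H3K27me3 was higher at 1, H3K27ac at 2, H3K4me3 at 2, H3K36me3 at 3, RNAPII at 3 and MED1 at 2, with H3K4me1 and H3K36me3 lower at 1 each. Within 1 kb of start sites, H3K27ac was higher at 1 and lower at 0, H3K4me1 lower at 8, H3K36me3 higher at 2 and lower at 0, RNAPII higher at 3 and lower at 1, and MED1 higher at 2. At a ratio of 2, H3K4me3 was higher at 0, H3K4me2 at 3 and H3K4me1 at 1. With equal peak numbers MED1 was higher at 2. Without flanks the H3K27me3 difference was -5.91 kb over Hoxa and 0 kb over Hoxd. With overlap of 50% of both peaks, shared Hox peaks were 22.0% (WT) and 44.4% (IKDN) for H3K27me3. They were 13.0% and 30.0% for H3K4me3, and 0% in both for RNAPII. The share of all WT H3K27me3 peaks was then 18.6%, within the Hox interval of 10.6% to 37.6%. That of all IKDN H3K27me3 peaks lay below the Hox interval of 21.5% to 69.2%. For H3K4me3 the shares of all peaks were 76.9% (WT) and 81.4% (IKDN). For RNAPII they lay within the Hox intervals, with 28.6% in WT. Shares of all genes called under these alternatives are not given here. The counts of Hox genes under them therefore cannot be set against a background. The causes were not tested. No paired analysis was possible because each group has 1 library. Depth is known only from the score steps, and a missing peak does not show a missing mark.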
